A study of Mus musculus with 2 samples.

Results

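The 8 probes described here measure transcripts of ultraconserved elements that have been linked to liver disease or to hypoxia, 1 probe for the + strand and 1 for the - strand of each of uc.134, uc.338, uc.372 and uc.475. They were found by the element names that the array files give, among 962 probes for ultraconserved elements and 59692 probes in all. The files used here hold neither the probe sequences nor the positions of the elements in the mouse genome, and they do not say relative to what a strand is called + or -. RNA from the liver of male C57BL/6J mice of 10 to 12 weeks was hybridized in a single color to 1 Arraystar LncRNA array for the control and 1 for ischemia/reperfusion (I/R), in which the blood supply is cut and then restored. The labels give no treatment for the control, while the study compares I/R livers with sham livers. For I/R, 3 livers were mixed, and the mice had undergone 1 hour of partial ischemia of the liver and then 6 hours of reperfusion. For the control, the number of livers is not stated. Only the left and median lobes were clamped, and which lobes gave the RNA is not stated either. With 1 array per group no test of a difference can be run, so no p-value is given and intervals cover the scanner's error of each spot only.

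Ultraconserved elements are stretches of the genome that are identical in human, mouse and rat. Some of them are transcribed into LncRNAs, and a few of these transcripts have been described in human liver disease or under low oxygen. The transcript of uc.338 has been described as raised in hepatocellular carcinoma and as promoting tumor cell growth, whereas that of uc.134 has been described as lowered in the same tumor. The transcript of uc.372 has been described as raised in fatty liver, where it favors lipid storage by hindering the maturation of microRNAs. The transcript of uc.475 has been described as induced by hypoxia in cancer cells. The values below give the signals of these 4 elements in mouse liver with and without I/R.

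In the control liver, 4 of the 8 probes gave a signal above background and the other 4 did not. The + and - strand of uc.338, the - strand of uc.134 and the + strand of uc.475 carried the scanner flag for a positive and significant signal, that is, one above the local background, on each array. The - strand of uc.475 was at the noise floor in the control liver and well above background after I/R. The + strand of uc.134 and both strands of uc.372 were at the floor of both arrays. The share of probes positive and significant on both arrays was 57.2% of the 954 other ultraconserved probes and 80.0% of all probes, so 4 of 8 is close to the share for ultraconserved probes in general. A stricter flag, for a signal well above background, was carried on both arrays by 3 of the 8. That share was 35.3% of the other ultraconserved probes and 62.3% of all probes. In whole liver RNA, fewer cells of a type and less RNA per cell cannot be told apart.

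**Figure D1:**
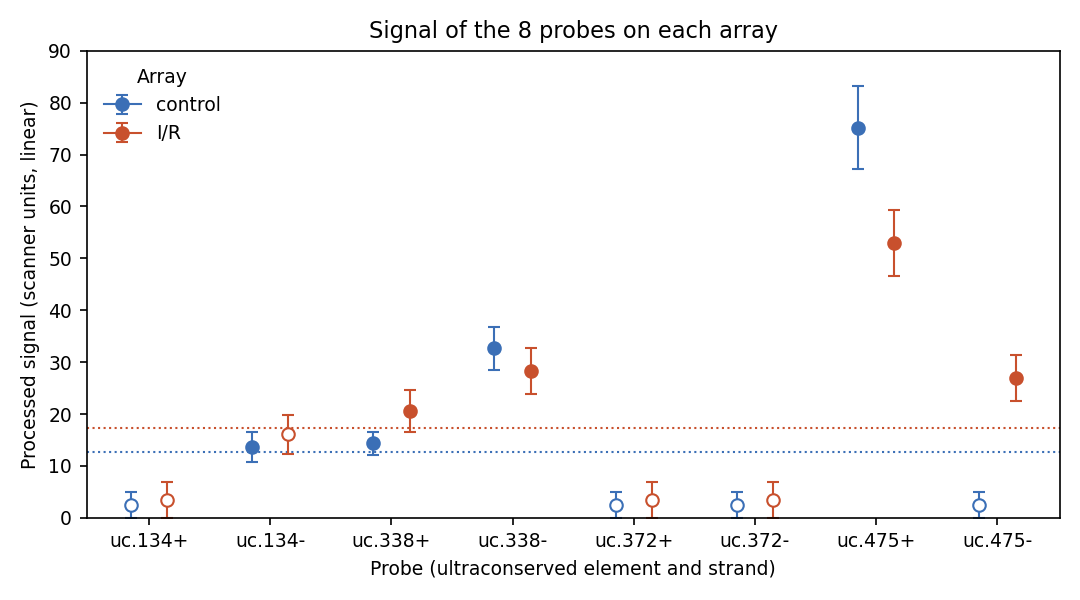
Processed signal of each of the 8 probes on the control array (blue) and the I/R array (orange), on a linear axis, with the scanner's error of the spot as bars, which run below the axis for spots at the floor. Filled points were well above background, open points were not, and dotted lines mark the lowest signal well above background on each array, 12.7 for control and 17.3 for I/R. Only the - strand of uc.475 goes from the floor to a filled point.

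The uc.475 transcript is the member linked to hypoxia, and after I/R the signal of its - strand was higher while that of its + strand was lower. The - strand probe had a background-subtracted signal of -5.38 on the control array, which the scanner software replaced by its floor of 2.53. On the I/R array the signal was 26.9 with a scanner error of 4.38. The raw pixels show the same step, since the spot's median pixel signal was 31.0 over a local background of 32.0 on the control array and 71.0 over 31.0 on the I/R array. Local background therefore differed by 1 unit at this spot, while the spot itself gained 40 units. The median pixel signal also rose at the probes at the floor of both arrays, where local background rose as well. It went from 31.0 to 41.0 for uc.134+, from 32.0 to 41.0 for uc.372- and from 39.0 to 41.0 for uc.372+. A smaller gain in raw signal was thus also seen at spots without detectable signal.

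Because the control signal of uc.475- was not well above background, its fold is only a bound. Its normalized I/R signal of 27.2 was at least 2.17-fold higher than the control signal, which is taken as no more than 12.5, the dimmest normalized signal there that still counted as well above background. With the scanner error of the I/R spot alone this bound ran from 1.58 to 2.99. With the normexp correction of background, where an offset is added to every signal, the bound was 1.43. The pattern of a signal well above background after I/R alone was found for 2.20% of the other ultraconserved probes, 21 of 954, and for 1.91% of all probes. Among probes with this pattern, a bound of at least 1.5 was reached by 95.2% of those other ultraconserved probes and by 86.8% of all probes. The dimmest normalized signal with that flag was 17.5 on the I/R array, against 12.5 on the control array. A bound near 1.5 thus follows largely from the flag itself. These shares therefore do not place the bound of 2.17 among probes that share the pattern. In all, 7 ultraconserved probes, uc.475- among them, went from the control floor to a signal well above background after I/R. The other 6 were 0.629% of the 954 other ultraconserved probes, and the share over all probes was 0.350%. In order of I/R signal uc.475- was number 6 of the 7, behind uc.437-, uc.247+, uc.171+, uc.52- and uc.247-, whose I/R signals ran from 295 down to 29.1. The reverse pattern, from well above background on the control array to the I/R floor, was found for 6 of the other ultraconserved probes as well (0.629%), and for 0.439% of all probes.

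The array carries 20 probes that the files name as negative sequences, with 60 spots each, and the same step can be counted among them. Of the 1200 spots, 6 were at the floor on the control array and at least as bright as uc.475- on the I/R array. All 6 carried an outlier flag of the scanner on at least 1 array. Such a flag marks either uneven signal within a spot or a spot that departs from the other spots of its probe. The kinds were not counted apart, and uc.475- carried neither. A probe with 1 spot, as each of the 8 here, has no repeats to depart from, so the absence of a population outlier flag on uc.475- says nothing. Of the 1121 negative-sequence spots without an outlier flag, the largest rise of background-subtracted signal was 26.7 units, against 32.3 for uc.475-. The flag removes departing spots by its construction, so this limit is not independent of it. Around uc.475- on the array, the 24 spots within 2 rows and columns had a median signal of 21.9 on the control array and 16.6 on the I/R array, so the surrounding spots as a group were not brighter after I/R. The brightest of them had a signal of 21829 on the control array and 26354 on the I/R array. The part of neighboring spots in the result was not tested.

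The + strand of uc.475 was well above background on both arrays and dimmer on the I/R array. Its processed signal was 75.2 with an error of 7.94 on the control array and 52.9 with an error of 6.32 on the I/R array. After quantile normalization the fold of I/R over control was 0.706, with a 95% measurement interval of 0.517 to 0.965. This interval lies below 1, but it rests on the scanner error of the spots. With the SD of 0.29 over repeated spots of the negative-sequence probe nearest to it in control signal, an error chosen after the data were seen, it ran from 0.476 to 1.05 and included no change. The fold was just outside the threshold of 0.7 that the study used for downregulation. Normalization by the 75th percentile, with a fold of 0.698, and normalization over the ultraconserved probes alone, with 0.692, put it inside that threshold. Among the 337 other ultraconserved probes well above background on both arrays, 57 had a lower fold, and 104 (30.9%) had a larger change in either direction. The probes nearest to it in fold were uc.392- with 0.708 and uc.266+ with 0.710. The 24 spots around uc.475+ had a median signal of 34.8 on the control array and 26.8 on the I/R array, so they were dimmer after I/R too. Their part in the fold was not tested.

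The uc.338 element, described as raised in liver cancer, was the only one of the 4 with signal from both strands on both arrays. The same was true of 166 of the 477 other elements (34.8%) by the positive and significant flag, and of 70 (14.7%) by the well above background flag. The + strand had a processed signal of 14.4 on the control array and 20.6 on the I/R array, with errors of 2.21 and 4.02. Its normalized fold was 1.47 with a 95% measurement interval of 0.906 to 2.40, which includes no change. The fold was just under the threshold of 1.5 for upregulation, and cyclic loess normalization, with 1.62, put it past that threshold. Of the 337 other ultraconserved probes, 41 had a higher fold, and the nearest were uc.298- and uc.419+, both with 1.47. With normexp the fold of uc.338+ was 1.03, and the share of these probes with a lower fold went from 87.8% to 59.9%. The 24 spots around uc.338+ had a median signal of 15.6 on the control array and 16.7 on the I/R array. The brightest signal among them was 444 and 1737, and their part in the fold was not tested.

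The - strand of uc.338 was 32.7 on the control array and 28.3 on the I/R array, with errors of 4.14 and 4.47. Its normalized fold of 0.880 had an interval of 0.592 to 1.31, and 249 of the 337 other probes (73.9%) had a larger change. The nearest in fold were uc.131- with 0.879 and uc.474- with 0.882. The log2 fold of the + strand exceeded that of the - strand by 0.74, with a 95% measurement interval of -0.16 to 1.65. A strand difference larger in size was found for 19 of the 70 other elements with both strands well above background on both arrays (27.1%), where its median size was 0.41. The opposite directions of the strands of uc.338 were thus within the spot error.

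The - strand probe of uc.134, described as lowered in liver cancer, was close to the limit of measurement on both arrays. Its processed signal was 13.7 with an error of 2.88 on the control array, just above the lowest signal well above background there, 12.7. On the I/R array it was 16.1 with an error of 3.81, positive and significant but not well above background, where the lowest such signal was 17.3. The flag was thus absent on the array where the signal was higher, and the lowest signal that carried it was also higher on that array. A signal well above background on the control array alone was found for 7.76% of the other ultraconserved probes and 7.12% of all probes. The bound for this probe falls under 1, so no fold is given. The + strand probe of uc.134 had background-subtracted signals of -2.27 and -4.23 and was listed at the floor of both arrays.

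Both probes of uc.372, described as raised in fatty liver, were at the floor of both arrays. The background-subtracted signal of the + strand was 1.81 in the control and -3.13 after I/R, and that of the - strand was -2.48 and -5.25. For comparison, the 308 negative control spots of the array had medians of -3.82 and -5.05 on these arrays, and the 95th percentiles were 0.460 and 1.39. The control signal of uc.372+ was above 300 of the 308 negative control spots, but above only 45.0% of the 1200 negative-sequence spots. Signal from uc.372 was not detectable at this sensitivity, which does not show that the transcript is absent. For 97 of the 477 other elements (20.3%), neither strand was positive and significant on both arrays, a wider pattern that includes strands with signal on 1 array. At the floor of both arrays were 232 of the 954 other ultraconserved probes (24.3%) and 10.9% of all probes.

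**Figure D2:**
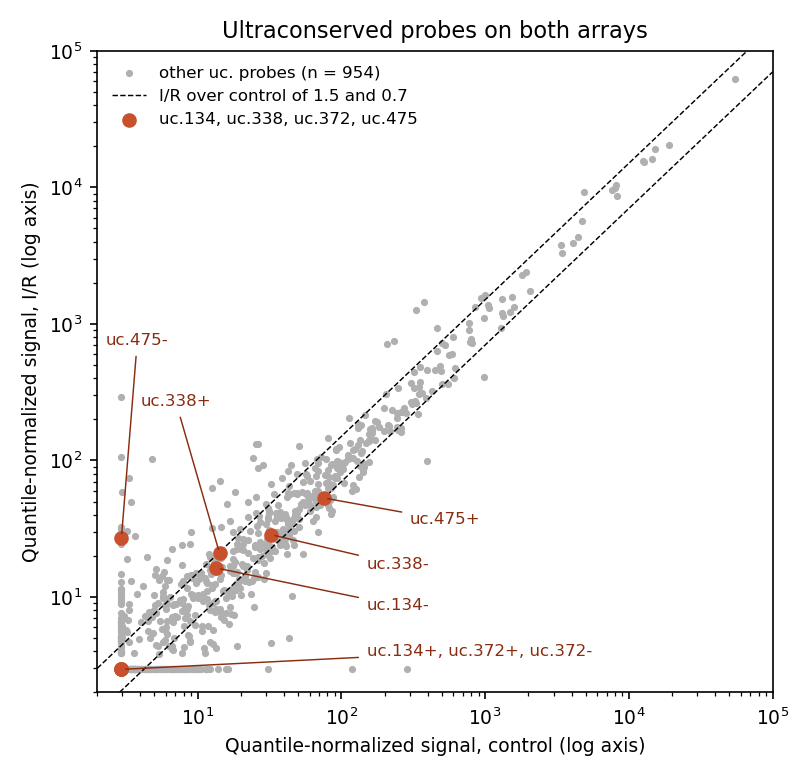
Quantile-normalized signal of every ultraconserved probe on the control array (horizontal) and the I/R array (vertical), both axes logarithmic. The 8 probes are orange and the 954 others gray, and dashed lines mark a fold of 1.5 and 0.7. The - strand of uc.475 stands on the left edge, formed by probes at the control floor, and 3 probes lie on top of each other at the floor of both arrays.

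None of the 4 members positive and significant on both arrays passed a fold of 1.5 or 0.7. Among the 546 other ultraconserved probes with this flag, 17.4% reached a fold of 1.5 or more and 22.2% a fold of 0.7 or less. Among all 47735 probes with this flag the shares were 14.2% and 16.3%. By the stricter flag they were 11.6% and 16.6% of 337 other ultraconserved probes, and 11.2% and 12.5% of all probes. None of the 3 members measured by that flag passed either threshold. The median log2 fold of the 3 members with a measured fold was -0.18, beside -0.04 over the other ultraconserved probes and -0.06 over all probes. The middle of the other ultraconserved probes, from the 25th to the 75th percentile, spanned log2 folds of -0.35 to 0.34. The log2 folds of uc.338+ at 0.56 and uc.475+ at -0.50 lay outside this span, and that of uc.338- at -0.18 lay within it. The widest changes among ultraconserved probes well above background on both arrays were far larger. The rises of uc.339+, uc.186- and uc.377+ were 5.12-fold, 5.07-fold and 4.99-fold. The falls of uc.204-, uc.12+ and uc.293- were to folds of 0.251, 0.382 and 0.414.

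**Figure D3:**
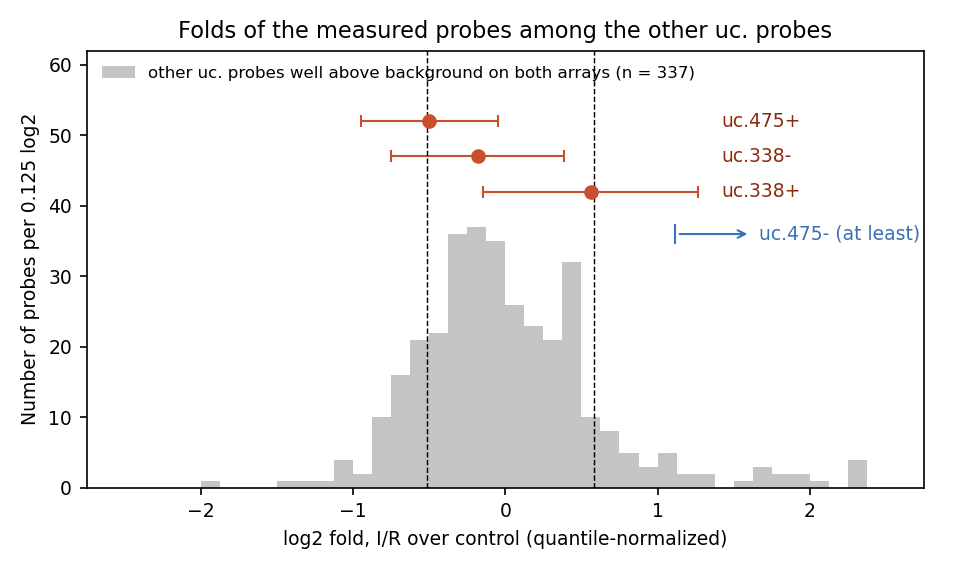
Log2 fold of I/R over control, after quantile normalization, for the 337 other ultraconserved probes well above background on both arrays (gray bars, number of probes per bin). Orange points with bars give the 3 members with a measured fold and their 95% measurement intervals, the blue arrow starts at the lower bound for uc.475-, and dashed lines mark folds of 1.5 and 0.7. The measured members lie between the dashed lines, with uc.338+ and uc.475+ close to them.

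The scanner error used for these intervals can be set beside the spread of repeated dim spots. Of the 20 negative-sequence probes, 8 had at least 30 usable spots positive and significant on both arrays, with mean background-subtracted signals of 5.33 to 55.6 on the control array. Over the spots of such a probe, the SD of the log2 fold, here from processed signals without normalization, ran from 0.29 to 0.73 with a median of 0.54. The standard errors that the scanner gives for the log2 fold were 0.36 for uc.338+, 0.29 for uc.338- and 0.23 for uc.475+. Each of the 3 is below that median SD, so the intervals given here are narrower than this spread would give, and with an SD of 0.54 none of the 3 would exclude no change. The log2 folds of 0.56, -0.18 and -0.50 were close to that median SD or below it in size. The brightest of the 8 negative-sequence probes, with a mean of 55.6 and thus nearest to the control signal of uc.475+, had an SD of 0.29. The median scanner standard error of these 8 probes ran from 0.23 to 0.83. It was above the SD for some, as MM9NEGATIVE016 with 0.83 against 0.61, and below it for others, as MM9NEGATIVE009 with 0.27 against 0.52.

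**Figure D4:**
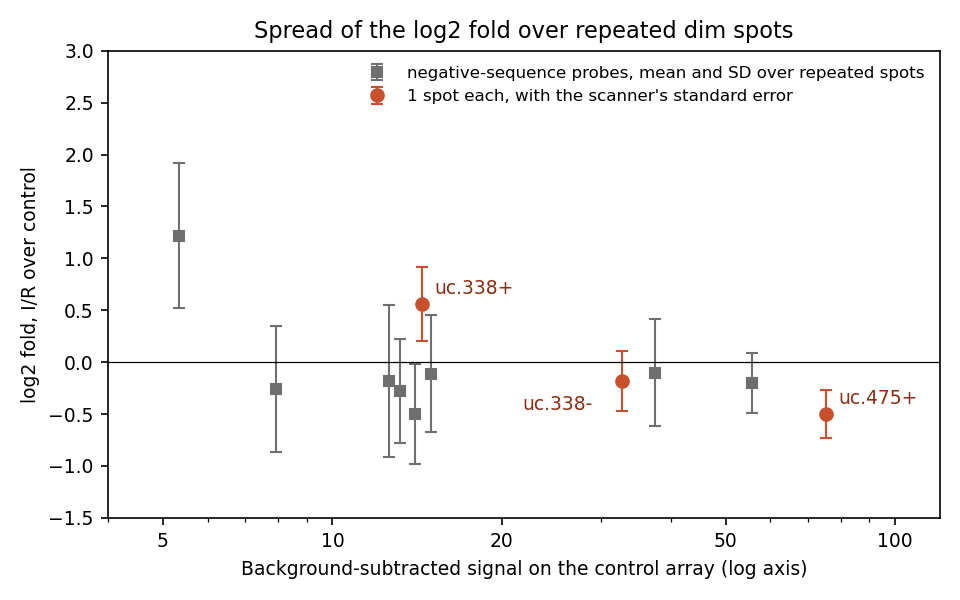
Log2 fold of I/R over control (vertical) against the background-subtracted signal on the control array (horizontal, log axis). Gray squares are the 8 negative-sequence probes with the mean and SD over their repeated spots, and orange circles are the 3 members with a measured fold, 1 spot each, with the scanner's standard error. The SDs of the gray squares run from 0.29 to 0.73, and uc.338+ lies above the mean of every gray square but the dimmest.

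The 954 other ultraconserved probes had a median processed signal of 8.46 on the control array and 8.47 on the I/R array. The lowest signal well above background was 12.7 and 17.3, so any probe with that flag lies above this median by construction. The members with signal on the control array all carried it there. On that array 58.6% of the other ultraconserved probes were dimmer than uc.134-, 59.0% dimmer than uc.338+, 71.8% dimmer than uc.338- and 81.8% dimmer than uc.475+. After I/R, 68.8% of them were dimmer than uc.475-, and 77.9% were dimmer than uc.475+. Over all non-control spots the median signals were 39.6 and 39.3, which uc.475+ exceeded on both arrays and the other 7 probes on neither. Negative-sequence spots give a second scale. The signal of uc.338+ on the control array was above 79.7% of the 1200 negative-sequence spots, that of uc.134- above 78.8%, that of uc.338- above 93.2% and that of uc.475+ above 99.1%. On the I/R array uc.475- was above 91.8%, and uc.475+ was above 1140 of the 1200. Of the negative-sequence spots themselves, 22.7% (control) and 14.2% (I/R) were flagged as well above background, so this flag alone does not show that a transcript was bound. The brightness of a probe also depends on its sequence, so these positions give no order of transcript levels among the elements.

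Genes tied to these transcripts could not be followed beside them. The list of 4 such genes (Pcbp2, Ogt, Cul4a and Lats1), that of 12 hypoxia-induced genes and those of hepatocyte, macrophage, neutrophil, endothelial, stellate and erythrocyte markers had 0 members with a name in the files, so neither the tissue nor a hypoxia response was checked here. All 5 housekeeping genes were named, and their normalized folds, each over 17 to 20 spots, ran from 0.843 for Tbp to 2.06 for Actb.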

How the data were processed

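The authors read the 2 arrays with Agilent Feature Extraction 11.0.1.1, per the submitters' processing notes. The deposited intensity of a spot is a processed signal from which background was subtracted and whose low values were set to a floor. The deposited files also hold its error, raw median, local background and flags of other kinds, each 0 or 1. The deposited series table held the same intensities for all 62513 spots within 0.01%, without the quantile normalization that the methods name.

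From these files, control spots, negative-sequence probes and 31 spots flagged as outliers on either array were left out. Quantile normalization of the log2 signals of 59692 probes used limma 3.58.1 and R 4.3.3, and tables were made with Python 3.11.15. Each member has 1 spot. A fold is I/R over control with an interval of 1.96 standard errors, and thresholds of 1.5 and 0.7 as in the methods. For a probe well above background on 1 array only, a bound is given, in which the dimmest normalized signal with that flag stands in for the other array. The precision is limited by the number of arrays, and no test was run. The normalization and the fold thresholds were tested on simulated data, with changes only in probes well above background on both arrays. That simulation did not cover the step from the floor, the flags or the bound.

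The members, the gene lists and the alternatives were chosen with earlier results of these data known. Probes were named by rule: all 8 members, the 2 nearest in fold to each measured member, the 3 largest rises and falls, and the listed genes that the files name. The probes from the floor to a bright signal were named after their values were seen. Normexp was run on the median signal, since the files hold no mean signal.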

Additional observations from a re-analysis of the deposited data

How the results depend on the processing

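The folds of uc.338+, uc.338- and uc.475+ stayed within their measurement intervals under every alternative run: 75th percentile, cyclic loess, no normalization, normexp, ultraconserved probes only, and outlier-flagged spots kept. Without normexp they ran from 1.43 to 1.62, 0.861 to 0.968 and 0.692 to 0.754; with normexp, which adds an offset of 50 and so shrinks folds of dim probes by construction, they were 1.03, 0.951 and 0.844. The lower bound for uc.475- ran from 2.11 to 2.24 and fell to 1.43 with normexp. The number of members with a fold of at least 1.5, 0 here, was 1 with cyclic loess (uc.338+), and the number with a fold of at most 0.7, 0 here, was 1 with the 75th percentile and 1 with ultraconserved probes only (uc.475+ in both). Of the 550 ultraconserved probes positive and significant on both arrays, 95 were up and 121 down. These counts became 53 and 30 at 2-fold, and 22 and 12 with normexp. No share over all probes is given for these 2 settings. When the stricter flag was required on both arrays, the counts were 39 and 56, of 340 probes. The share of other ultraconserved probes with a lower fold than uc.338+ was 59.9% with normexp, against 87.8%. The strand difference of uc.338 ran from 0.69 to 0.74, and was 0.12 with normexp. No paired analysis was possible because each group has a single array. Of the 3 measured members 1 (uc.475+) had a fold interval that excluded no change, and 0 had one when the scanner error was replaced by the SD over repeated spots of the nearest negative-sequence probe or by the median SD of 0.54, both chosen after seeing the data. Signal over background limits the members other than uc.475+, whose signals were below the median of non-control spots on both arrays.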

Other observations

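Of the 12 negative-sequence probes with mean background-subtracted signals under 3 on both arrays, 663 spots carried no outlier flag, and their change from control to I/R had an SD of 3.87 units, with a largest rise of 9.67. These probes were selected by their means over unflagged spots, and flagged spots were left out, so this range is narrow by construction. With flagged spots kept, 4 of the 720 spots of these probes rose by at least the 32.3 units of uc.475-. The negative-sequence probe MM9NEGATIVE012, chosen after its values were seen, was brighter on the I/R array, with a background-subtracted signal of 5.33 ± 2.78 (SD, n = 57 spots) on the control array and 13.6 ± 2.95 on the I/R array. These are spots of 1 array per group, so they describe the arrays and not the mice.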
